A study of Bos grunniens with 3 samples.

Results

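The telogen library of Tianzhu white yak hair follicles was compared with the anagen library, gene by gene. All cell barcodes with at least 200 detected genes were taken from both, which kept 14502 of 14573 telogen cells and 11987 of 12000 anagen cells, or 26489 of the 38697 cells in the 3 libraries of the series. In the methods the skin was scapular and came from healthy animals about 2 years old, the age listed for all 3 libraries. Each stage of the hair cycle has 1 library, and no animal carried a treatment or an allele that was described. By the methods, hair follicles were pulled from enzyme-digested skin strips and their cells were released with trypsin. The cells were sequenced with the 10x Genomics 3' single-cell assay, in which each transcript carries a unique molecular identifier (UMI). The methods name 3 animals, sampled in anagen and catagen, and do not describe the sampling for telogen. They give neither the number behind each library nor which animals gave the telogen cells. For each gene the UMIs of these cells were added up within a library and expressed as a rate per 1000000 UMIs of that library (CPM), and the 15765 of 26924 annotated genes that have a symbol were compared. The catagen library is given beside both for reference, and values in a row are in the order anagen, catagen and telogen.

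Hair follicles pass through growth (anagen), regression (catagen) and rest (telogen). In anagen, dividing matrix cells at the base of the follicle receive WNT, *SHH* and BMP signals and form the hair shaft and the inner root sheath that guides it. In telogen this lower part is gone, the club hair stays anchored, and bulge and germ cells wait under the upper follicle, which together with the epidermis keeps renewing its basal and cornifying layers.

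The libraries were of similar depth. The kept telogen cells held 103430933 UMIs and the kept anagen cells 82816430, with medians of 5583.5 and 5256 UMIs and of 1265 and 1328 genes per cell. The lowest kept anagen cell held 2404 UMIs, whereas 3953 telogen cells held fewer than that. Keratinocyte genes were abundant in all libraries, and the markers of endothelial, immune, melanocyte and mesenchymal cells were low. The summed levels were 14.3, 7.33 and 9.22 CPM for 9 endothelial markers and 2.86, 3.1 and 3.64 CPM for 10 immune markers. They were 8.25, 33.1 and 8.41 CPM for 5 melanocyte markers and 42.6, 9.76 and 5.08 CPM for 8 mesenchymal markers. Higher sums were found for pericyte and smooth muscle markers (184, 343 and 234 CPM, mostly *TAGLN*). Sebaceous markers summed to 35.2, 58.2 and 62.7 CPM. The mesenchymal sum was mostly *COL1A2*, a fibrillar collagen gene (30.3, 0.252 and 2.61 CPM), and was lowest in telogen. Telogen and anagen shared 40 cell barcodes. Each stage has 1 library, made with its own Cell Ranger version, so that stage, animal and library cannot be told apart and no test between stages was made. All intervals below are 95% intervals that cover counting error only, and they are narrow because the counts are large. Those of ratios and shares are exact, and those of differences of shares are Newcombe intervals. In summed UMIs, fewer cells of a type and less RNA per cell cannot be told apart.

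A level of 50 CPM or more in anagen or telogen was reached by 1580 genes that have a symbol, of which 40 were at least 2-fold higher in telogen (2.53%) and 141 were at least 2-fold lower (8.92%). The median log2 ratio of telogen over anagen was -0.19 over these genes, with 5th and 95th percentiles of -1.29 and 0.73. In telogen 1 gene was 4-fold or more higher and 15 genes were 4-fold or more lower. When the libraries were instead scaled to the median of the 10829 genes with at least 50 UMIs in each, whose log2 ratio was -0.18, 66 genes were 2-fold higher and 95 were 2-fold lower, so that the surplus of lower genes became smaller. A gene with a log2 ratio of -0.18 in the text therefore stood at the median gene, and genes with ratios between -0.18 and 0 changed sign with that scaling.

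**Figure D1:**
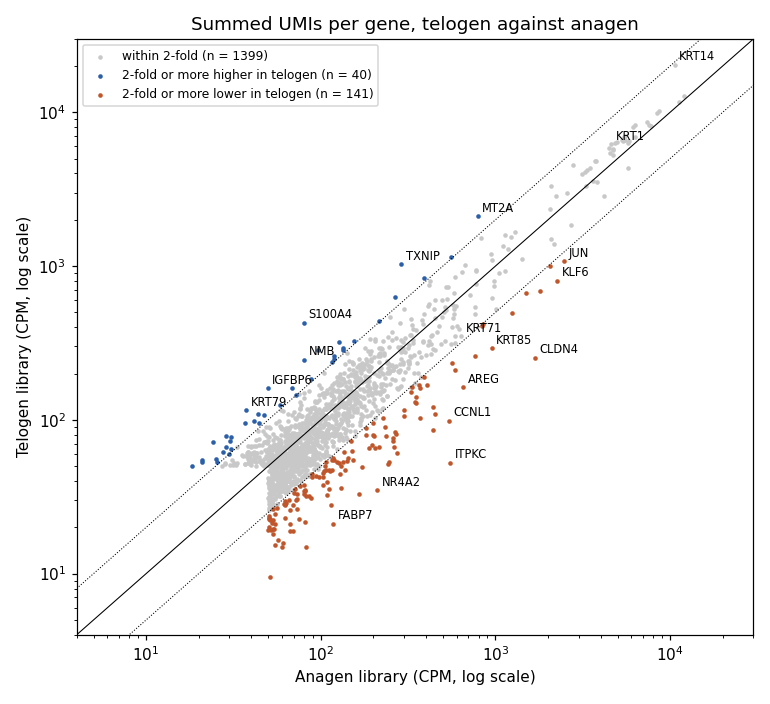
Level of each of the 1580 genes in the anagen library (horizontal, CPM, log scale) and in the telogen library (vertical, CPM, log scale), 1 point a gene. The solid line marks equal levels and the dotted lines mark 2-fold, with 40 genes above the upper line and 141 below the lower one.

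The gene with the highest ratio was *S100A4*, a calcium-binding protein linked to cell motility. It measured 80.0, 182 and 427 CPM, from 6623 UMIs in anagen and 44156 in telogen, and was 5.34-fold higher in telogen (log2 2.42, 2.38 to 2.45). Next came *TXNIP*, the inhibitor of thioredoxin, with 289.7, 792 and 1029 CPM and a log2 ratio of 1.83 (1.81 to 1.85). In both genes catagen lay between the other stages. *IGFBP6*, a binding protein with preference for IGF2, measured 49.6, 9.26 and 160.3 CPM and was 3.23-fold higher in telogen than in anagen, with catagen far below both. *KRT79*, a keratin of the upper follicle and infundibulum, was 3.09-fold higher (37.3, 54.2 and 115 CPM).

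Several secreted or surface products belonged to the same 15 genes. *NMB*, which encodes the peptide neuromedin B, measured 80.3, 83.0 and 245 CPM, and *DUOX1*, an oxidase that makes hydrogen peroxide at epithelial surfaces, measured 24.2, 24.2 and 71.4 CPM. Both had nearly the same level in anagen and catagen and were higher in telogen (3.06-fold and 2.95-fold over anagen). *LGALS1*, a galactose-binding lectin, reached 127, 98.9 and 322 CPM, and *S100A10*, the partner of annexin A2, reached 96.0, 199 and 285 CPM. *QPCT*, which forms N-terminal pyroglutamate on peptides, reached 30.6, 61.5 and 77.8 CPM.

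*MT2A*, a metallothionein that binds zinc and copper, was abundant and 2.66-fold higher in telogen (791, 372 and 2106 CPM). *CRABP2*, the carrier of retinoic acid to its receptor (20.9, 31.9 and 54.8 CPM), *UGP2*, which makes UDP-glucose (36.8, 56.3 and 96.1 CPM), and *PSMB10*, a catalytic subunit of the immunoproteasome (20.8, 9.80 and 53.4 CPM), had log2 ratios of 1.39, 1.39 and 1.36. The RNA-binding protein gene *HNRNPA0* (18.3, 51.0 and 50.3 CPM) and the actin-associated *PDLIM4* (28.7, 27.2 and 78.0 CPM) completed the set. The next genes below the 15 were *PTGES*, the prostaglandin E synthase, with log2 1.33, and *IL18* with log2 1.27, against 1.34 for *LGALS1* at the edge. Catagen lay between anagen and telogen in 8 of the 15 genes, below both in 6 and above both in 1.

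The lowest ratio belonged to *ITPKC*, a kinase that phosphorylates inositol trisphosphate and so limits calcium release. Its level was 549, 114 and 52.3 CPM, 10.5-fold lower in telogen than in anagen (log2 -3.39, -3.43 to -3.35). *CLDN4*, a tight junction claudin, followed with 1675, 556 and 254 CPM and a log2 ratio of -2.72 (-2.74 to -2.70). Both genes were highest in anagen, intermediate in catagen and lowest in telogen.

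Regulators of transcription and RNA made up a part of the 15 lowest genes. The orphan nuclear receptor *NR4A2* measured 211, 252 and 34.9 CPM, the transcription factor *ETS2* 439, 159.9 and 86.0 CPM, and the clock-linked repressor *BHLHE40* 272, 108 and 61.3 CPM. *IFRD1*, a transcriptional cofactor, measured 244, 141 and 53.6 CPM, and *CCNL1*, a cyclin of RNA splicing, 540.4, 294 and 98.4 CPM. *TIPARP*, a target and brake of the aryl hydrocarbon receptor, was 4.11-fold lower in telogen (448, 255 and 109 CPM), and *UHRF1*, which maintains DNA methylation in dividing cells, 4.01-fold lower (59.6, 28.3 and 14.9 CPM). In 6 of these 7 genes catagen lay between the other stages, and in *NR4A2* it lay above both.

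The remaining genes described act outside the nucleus. *PLAT*, the tissue plasminogen activator (81.9, 17.4 and 14.9 CPM), and *SERPINE2*, an inhibitor of such proteases (115, 16.3 and 28.0 CPM), had log2 ratios of -2.45 and -2.04. *FST*, the secreted activin antagonist follistatin, measured 166, 80.2 and 33.1 CPM, the fatty acid carrier *FABP7* 117, 23.5 and 21.2 CPM and the small GTPase gene *RND3* 243, 164 and 51.7 CPM. All of these were lowest in telogen except *SERPINE2*, which was lowest in catagen. *AREG*, which encodes the EGF receptor ligand amphiregulin, lay just outside the 15 genes with a log2 ratio of -2.00, beside *UHRF1* with -2.00. Catagen lay between anagen and telogen in 13 of the 15 lowest genes. The same held for 96 of all 141 genes that were 2-fold lower and 25 of the 40 that were 2-fold higher. Since these genes were chosen for a wide gap between anagen and telogen, the catagen level falls inside it more easily. The share over all genes was not counted. These counts, and those for the 15 highest genes, are therefore not read as an order of the stages.

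**Figure D2:**
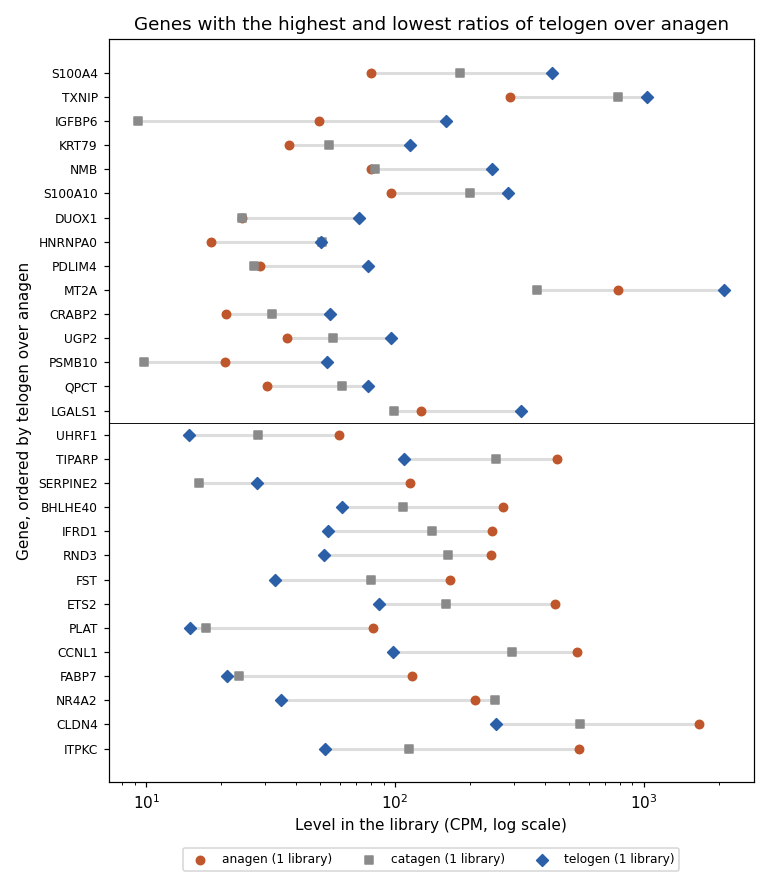
Levels (CPM, log scale) of 29 of the 30 genes at both ends of the ratio of telogen over anagen, ordered by that ratio, with 1 point for each library. Telogen is to the right of anagen in the upper 15 genes, from 80.0 to 427 CPM for *S100A4*, and to the left in the lower 14, from 549 to 52.3 CPM for *ITPKC*.

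Cells were then sorted by their UMIs in fixed keratin and marker genes. These classes are ranges of a share, or of a balance between UMI sums, and not cell types. Several of the sorting genes themselves differed between the libraries, as given below. Cells of the same state can therefore fall into different classes in anagen and telogen. Cells with at least 2% of UMIs in inner root sheath and shaft keratin genes made up 1.88% of anagen (225 cells, 1.64% to 2.14%), 1.14% of catagen (137 cells) and 0.552% of telogen (80 cells, 0.438% to 0.686%). Telogen thus held 1.33 percentage points less than anagen (interval of the difference -1.61 to -1.06). The telogen cells of this class were deep, with a median of 15740 UMIs against 6599 in anagen. In anagen 404 cells and in telogen 115 cells lay between 1% and 4%, near the cut-off.

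Cells outside both this class and the non-epithelial class given below were then split. Those with more UMIs of *KRT1*, *KRT10*, *KRTDAP* and *SBSN* than of *KRT5*, *KRT14*, *KRT15* and *KRT17* were called the suprabasal side, and the rest the basal side. The suprabasal side made up 30.3% of anagen (29.5% to 31.1%), 22.4% of catagen and 24.1% of telogen (23.4% to 24.8%), a difference of -6.19 percentage points between telogen and anagen (-7.27 to -5.11). Cells of any class or side with at least 1% of UMIs in mitotic genes made up 1.24% of anagen, 1.43% of catagen and 0.958% of telogen. The difference between telogen and anagen was -0.285 percentage points (-0.544 to -0.0331). Near that cut-off lay 435 anagen and 327 telogen cells. The non-epithelial class held cells outside the shaft keratin class with at least 0.5% of UMIs in endothelial, mesenchymal, immune or melanocyte markers. They were few, with 39 in anagen (0.325%), 16 in catagen and 19 in telogen (0.131%), and 50 anagen and 42 telogen cells lay near this cut-off.

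The genes past 2-fold were also described on each side. The basal side held 62.7% of the UMIs in anagen and 72.6% in telogen, and both sides are part of the cells that chose these genes, so a shared direction is largely fixed by that choice and is no separate support. All 40 genes that were 2-fold higher in the whole telogen library were also higher among basal side cells, and 36 of them by 2-fold. Among suprabasal side cells 39 of the 40 were higher, 32 of them by 2-fold, and the exception was *LGALS1*, with 55.0 CPM in anagen and 52.8 in telogen there against 165 and 420 on the basal side. The ratios on the sides lay more than 0.5 apart on the log2 scale for 5 of the 40 higher genes and 28 of the 138 lower genes that did not serve to sort cells, and more than 1 apart for 2 and 3 of them. *S100A4* had log2 ratios of 2.33 and 2.31 on the suprabasal and basal side. *KRT79* differed more between the sides, with 55.7 CPM in anagen and 278 in telogen on the suprabasal side and 29.6 and 61.0 on the basal side. All 138 lower genes were lower in telogen on both sides, 117 by 2-fold on the suprabasal and 132 on the basal side. *ITPKC* had log2 ratios of -3.31 and -3.40, and *CLDN4* of -2.36 and -2.88. The widest gaps among lower genes were in *PLAT* (-3.51 and -2.33), *FST* (-1.50 and -2.62) and *ARID5B*, a chromatin-binding gene named after its values were seen (-2.37 and -1.34).

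**Figure D3:**
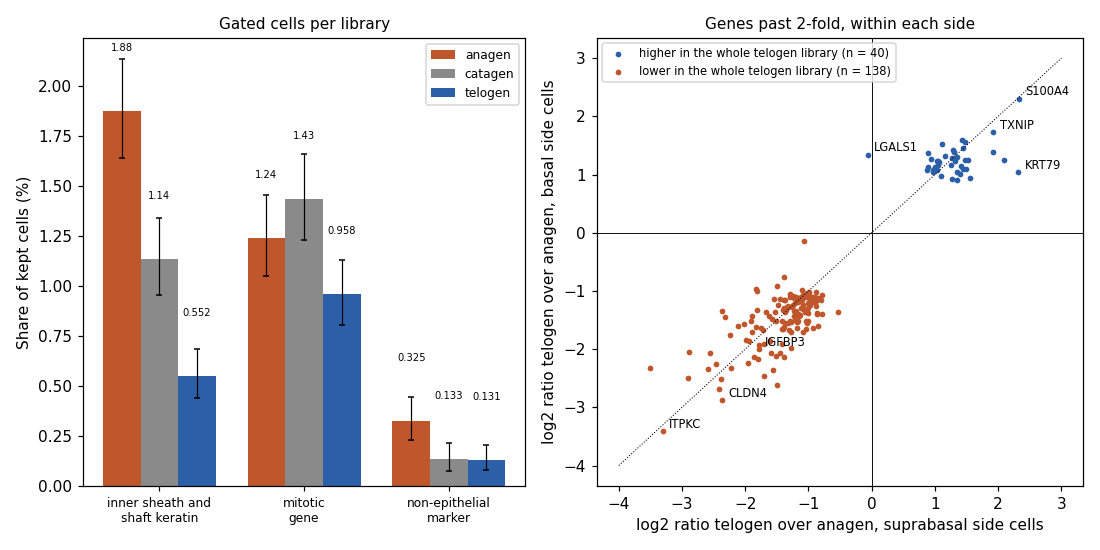
Left, the share of kept cells (%) in 3 sorted classes of each library, with exact 95% intervals of counting error. Telogen is lowest for inner sheath and shaft keratin cells (0.552% against 1.88% in anagen). Right, log2 ratios of telogen over anagen among suprabasal side cells (horizontal) and basal side cells (vertical) for the 40 higher and 138 lower genes, where *LGALS1* is the one gene on opposite sides of 0.

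Gene lists of follicle and skin biology were then described by their members with at least 10 CPM in either library. Counts are out of the listed genes that have a row, and a member can pass this level through the library in which it is high. The counts and medians of lists with members near the level can therefore partly follow from it. Lists can share genes, and a shared gene is counted in each. Of all 4667 genes with a symbol at that level, 2.14% were 2-fold higher and 7.99% 2-fold lower in telogen, and the median log2 ratio was -0.22. The 25th and 75th percentiles were -0.55 and 0.13, so that most of these genes lay below 0.

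**Figure D4:**
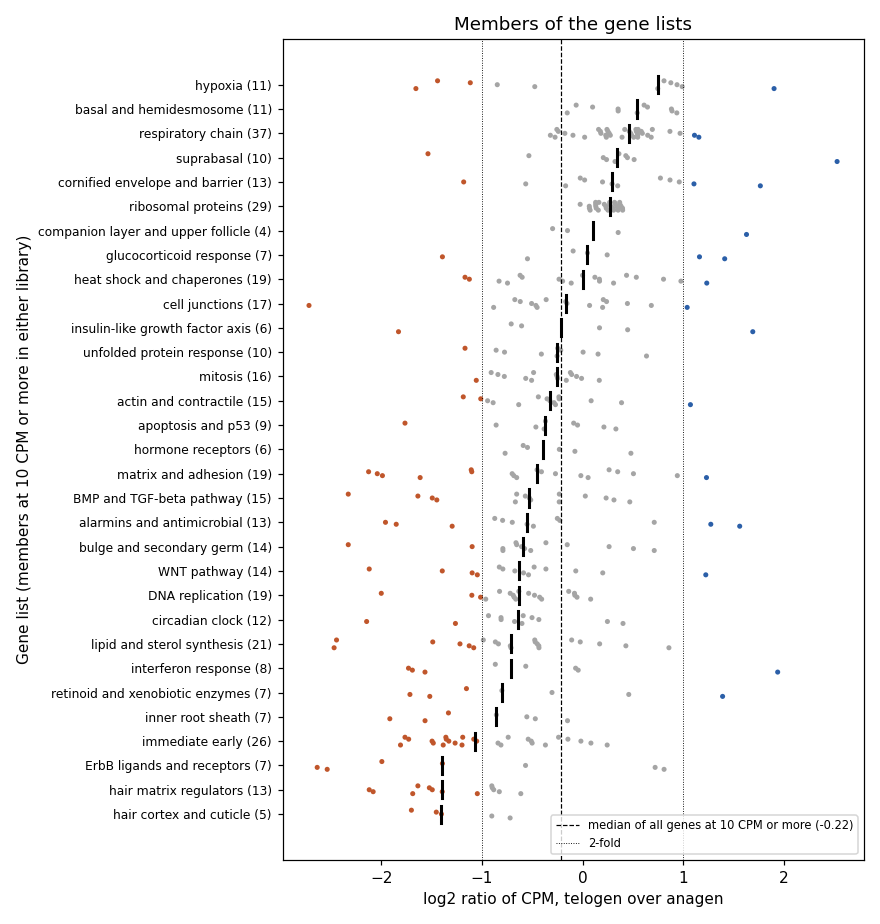
log2 ratio of telogen over anagen for each list member with at least 10 CPM in either library (points, coloured when past 2-fold), with the list median as a black bar and the number of members in parentheses. The dashed line is the median of all genes at that level (-0.22). The lists of hair cortex and cuticle genes, hair matrix regulators, ErbB ligands and receptors, and immediate early genes have the lowest medians.

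Keratins of the growing hair were lower in telogen. For the hair cortex and cuticle, 5 of 22 genes reached the level, all 5 were lower and 3 were past 2-fold, with a median of -1.40. *KRT85*, a keratin of the hair matrix, cortex and cuticle, measured 949, 441 and 292 CPM, *KRT35*, an acidic partner of the early cortex, 40.3, 38.5 and 15.2 CPM, and *SELENBP1*, a selenium-binding protein listed with the cortex, 351, 108 and 128 CPM. *HOXC13*, the homeobox activator of hair keratin genes, measured 11.1, 13.3 and 5.95 CPM and *VSIG8*, a protein of the shaft cuticle, 11.5, 9.31 and 6.95 CPM. The other 17 genes, among them *KRT34*, *KRT36* and 8 genes of hair keratin associated proteins, stayed under 10 CPM in both libraries.

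In the inner root sheath list 7 of 9 genes reached the level, all 7 were lower in telogen and 3 were past 2-fold (median -0.86). Of the 7 genes, 1 lay above the median of all genes. The keratins differed widely in their ratios. *KRT27* measured 765, 721 and 258 CPM, *KRT28* 143, 127 and 56.5 CPM and *KRT73*, of the sheath cuticle, 26.1, 13.9 and 6.90 CPM, with log2 ratios of -1.57, -1.33 and -1.92. *KRT71* was 1.81-fold lower (634, 675 and 349.7 CPM) and *KRT25* 1.39-fold lower (429, 773 and 309 CPM), and both were highest in catagen. *GATA3*, a transcription factor of this sheath, had a log2 ratio of -0.56 (31.6, 53.4 and 21.5 CPM). *KRT75*, the companion layer keratin, was nearly equal in the libraries (187, 319 and 168 CPM, log2 -0.15), and its log2 ratio turned to 0.03 with scaling to the median gene and to 0.53 without the 5% of cells with the most UMIs.

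Cells with a *KRT71* or *KRT85* UMI were counted after thinning each cell to 1500 UMIs, which kept all anagen cells and 11570 telogen cells and left out 2932 shallower telogen cells. *KRT71* was seen in 16.0% of anagen and 4.72% of telogen cells, against 7.69% of the 39 anagen cells and 0% of the 14 telogen cells of the non-epithelial class. By the approximate rule of 3 divided by the number of cells, 0 of 14 allows a share of up to 21.4%. Before thinning the shares were 34.0% and 13.8%, at the median depths given above. *KRT85* was seen in 28.4% of anagen and 4.81% of telogen cells, against 25.6% and 7.14% of the non-epithelial cells, and in 56.2% and 12.8% before thinning. The *KRT85* shares of all cells and of the non-epithelial cells were thus close in anagen, and in telogen the share was below that of the 14 cells. With 39 and 14 non-epithelial cells these comparisons are coarse. The shares of both genes are therefore not read as shares of expressing cells, and the part that free RNA has in them was not tested.

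The signals of the hair matrix were lower in telogen as well. Of 25 genes 13 reached the level, all 13 were lower and 8 were past 2-fold, with a median of -1.40. *LEF1*, the transcription factor that carries WNT signals in matrix and precortex, measured 27.5, 19.1 and 6.32 CPM, and *PTCH1*, receptor and target of hedgehog signals, 12.9, 14.6 and 3.04 CPM. *SHH* itself, the hedgehog ligand of the matrix, was below the level of the list, with 484 UMIs in anagen and 90 in telogen (5.84, 4.09 and 0.870 CPM). The homeobox genes *MSX1* (19.7, 10.6 and 6.84 CPM), *MSX2* (10.6, 7.20 and 3.29 CPM) and *DLX3* (142, 77.9 and 53.9 CPM) act in matrix and shaft differentiation and had log2 ratios of -1.52, -1.69 and -1.40. *FOXN1*, the factor missing in nude mice, had a ratio of -0.90 and the Notch ligand *JAG1* of -0.88. In *SHH*, *LEF1*, *MSX1*, *MSX2* and *DLX3* catagen lay between the other stages, and in *PTCH1* it lay above both. *LEF1*, *PTCH1*, *MSX1* and *MSX2*, among others, were under 10 CPM in telogen and reached the level through anagen. The counts and the median of this list therefore partly follow from the level. Summed over all 25 genes, whatever their level, the list measured 493, 434 and 211 CPM.

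In the WNT list 14 of 37 genes reached the level, with 1 member 2-fold higher, 4 members 2-fold lower and a median of -0.63. Of these 4, *LEF1* and *WNT11* also belong to the matrix list and *TCF7L2* to the bulge and germ list. The ligands *WNT6* (34.4, 32.3 and 13.1 CPM), *WNT11* (21.1, 29.3 and 10.2 CPM) and *WNT10A* (25.1, 26.3 and 14.1 CPM) and the transcription factor *TCF7L2* (50.5, 53.3 and 23.6 CPM) were lower in telogen. *CTNNB1*, the gene of beta-catenin, had a log2 ratio of -0.67. *RSPO1*, a secreted amplifier of WNT signals, was the member that was higher, at a low level (5.55, 3.28 and 13.0 CPM).

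Of 30 genes of BMP and TGF-beta signalling 15 reached the level, 0 were 2-fold higher and 4 were 2-fold lower (median -0.53). The ligands *BMP2* (37.3, 36.5 and 13.2 CPM) and *BMP4* (20.9, 25.4 and 6.70 CPM), the extracellular inhibitor *FST* named above and the target *ID4* (103, 105 and 37.9 CPM) were the 4 genes. *BMP2* and *BMP4* also belong to the matrix list and *FST* to the bulge and germ list. The targets *ID1* (768, 493 and 488 CPM) and *ID2* (126, 93.3 and 88.2 CPM) had log2 ratios of -0.66 and -0.52, and *TGFBI*, a matrix protein induced by TGF-beta, of 0.47.

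Basal keratinocyte genes were mostly higher, by less than 2-fold. In the basal list 9 of 11 genes at the level were above 0 and all 11 above the median of all genes, with a median of 0.54 and 0 members past 2-fold in either direction. *KRT14*, the basal keratin, was the largest difference of the list and measured 10602, 11744 and 20286 CPM, a ratio of 1.91-fold. Its partner *KRT5* measured 827, 1447 and 1524 CPM, and *KRT17*, of the outer root sheath, 4989.8, 3654 and 6373 CPM. The laminin chain gene *LAMA3* (48.4, 97.5 and 89.5 CPM) and the hemidesmosomal integrin genes *ITGA6* (124, 184 and 189 CPM) and *ITGB4* (14.2, 36.6 and 22.1 CPM) had log2 ratios of 0.89, 0.61 and 0.64. *KRT15* (294, 678 and 281 CPM) and *COL17A1* (214, 308 and 193 CPM), both high in bulge and basal cells, had log2 ratios of -0.06 and -0.15, which turned to 0.11 and 0.03 with scaling to the median gene. Since the basal keratins sorted the cells, they were not compared within sides.

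Suprabasal genes had a median of 0.34 over 10 of 11 genes. *KRT1* (4594, 4417 and 6185 CPM) and *KRT10* (3726, 4917 and 4783 CPM), the keratin pair of the spinous layer, had log2 ratios of 0.43 and 0.36. *KRT2*, a keratin of the upper spinous layer, was 5.77-fold higher in telogen at a low level (4.65, 8.42 and 26.8 CPM), whereas *KRT77*, a keratin of sweat ducts and epidermis, was 2.90-fold lower (28.2, 97.2 and 9.71 CPM). *SBSN*, the gene of suprabasin, was lower too (2693, 2532 and 1859.7 CPM, log2 -0.53). Telogen had fewer cells on the suprabasal side and yet higher *KRT1* and *KRT10* sums than anagen. The side of a cell also depends on the basal keratins, of which *KRT14* and *KRT5* were higher in telogen as given above. The share on this side is therefore not a count of suprabasal cells.

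Of 23 genes of cornification and barrier 13 reached the level, with a median of 0.29, 2 members 2-fold higher and 1 lower. *KLK7*, a protease that sheds corneocytes, measured 389, 197 and 838 CPM, and *CNFN*, a cornified envelope protein, 10.9, 26.6 and 37.1 CPM. The protease inhibitors *SPINK9* (24.8, 5.55 and 48.2 CPM) and *SPINK5* (769, 1593 and 942 CPM) had log2 ratios of 0.96 and 0.29, and *KLK6* (13.2, 1.59 and 24.1 CPM) of 0.87. *KLK6*, *KLK5* (45.4, 5.26 and 52.0 CPM) and *SPINK9* were lowest in catagen. The member that was lower was *PADI1*, which citrullinates keratins (14.9, 18.1 and 6.57 CPM).

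Bulge and germ genes were mostly lower in telogen, with 14 of 26 genes at the level, 3 above 0, 11 below and a median of -0.59. The 2 members past 2-fold lower were *FST* and *TCF7L2*, and 4 of the 14 genes lay above the median of all genes. The stem cell transcription factors *SOX9* (618, 529 and 391 CPM) and *LHX2* (73.8, 107 and 49.4 CPM) had log2 ratios of -0.66 and -0.58, and *LGR5*, a WNT-amplifying receptor of cycling follicle cells (13.2, 21.7 and 7.61 CPM), of -0.79. The genes above 0 were the chemokine gene *CXCL14* (204, 189 and 333 CPM), *SPARC* (644, 598 and 914 CPM) and *POSTN* (775, 822 and 930.3 CPM), of which the latter encode matricellular proteins. In the companion and upper follicle list 4 of 8 genes reached the level, with *KRT79* past 2-fold and *LRIG1*, a stem cell gene of the junctional zone, at 38.0, 40.0 and 30.9 CPM.

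Genes of DNA replication and of mitosis were mostly below 0. Of 22 replication genes 19 reached the level, 18 were below 0, 3 were 2-fold lower (*UHRF1*, *CLSPN* and *MCM2*) and the median was -0.63. Of the 19 genes, 5 lay above the median of all genes. *MCM2*, a subunit of the replicative helicase, measured 46.0, 24.0 and 22.8 CPM, and *MCM7* 81.3, 47.8 and 56.1 CPM. *PCNA*, the sliding clamp, was nearly equal (17.0, 23.0 and 18.0 CPM). In the mitosis list 15 of 16 genes were below 0, with a median of -0.26 that is close to that of all genes, and 6 of the 16 lay above the latter. Only the kinase gene *AURKA* was past 2-fold (16.2, 7.76 and 7.80 CPM). *CENPF* (283, 268 and 165 CPM) and *TOP2A* (142, 135 and 101 CPM) had log2 ratios of -0.78 and -0.49. The order of both medians depended on the side. On the suprabasal side the median was -1.68 for mitosis and -0.93 for replication, and on the basal side it was -0.23 for mitosis and -0.70 for replication. *TOP2A* had log2 ratios of -1.87 and -0.42 on the suprabasal and basal side. The sides were set by keratins that themselves differed between the libraries, so cells of the same state can lie on different sides. Some mitotic genes were low on the suprabasal side, such as *UBE2C* with 15.1 CPM in anagen and 4.42 in telogen. The medians of the sides are therefore not read as a loss of dividing cells from a layer.

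Immediate early genes, which cells switch on within minutes of growth factor or stress signals, were lower in telogen over a broad range. Of 30 genes 26 reached the level, 24 were below 0, 14 were past 2-fold lower and 0 past 2-fold higher, with a median of -1.07. The median of all genes was exceeded by 4 of the 26. The AP-1 genes *JUN* (2472, 3179 and 1076 CPM), *JUND* (1236, 1436 and 492 CPM) and *FOSB* (370.1, 484 and 162 CPM) had log2 ratios of -1.20, -1.33 and -1.19. *KLF6* (2260.0, 1183 and 801 CPM), *KLF4* (567, 619 and 235 CPM) and *KLF2* (200.4, 137 and 78.3 CPM), zinc finger factors, had -1.50, -1.27 and -1.36. The stress factor *ATF3* (588, 744 and 210.1 CPM), the growth arrest gene *GADD45A* (258, 142 and 75.8 CPM), the orphan receptor *NR4A1* (66.6, 116 and 19.0 CPM) and the cytokine inhibitor *SOCS3* (15.2, 24.3 and 4.57 CPM) were lower by a similar or larger size, with ratios from -1.48 to -1.81.

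Not all members followed. *FOS* was nearly equal in both libraries (775, 1645 and 766 CPM, log2 -0.02), a sign that turned with 3 of the 7 other settings and differed between the suprabasal (0.43) and the basal side (-0.25), and *DUSP1*, a phosphatase that ends MAP kinase signals, was slightly higher in telogen (379, 641 and 448 CPM). For *JUN*, *JUND*, *FOSB*, *ATF3*, *NR4A1*, *FOS* and *DUSP1* catagen lay above both, while for *KLF6*, *GADD45A* and *IER3* (841, 459 and 405 CPM) it lay between. The median over the list was -0.82 on the suprabasal side and -1.27 on the basal side.

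The difference was seen over most of the distribution of cells. In cells thinned to 1500 UMIs the list took a median of 14 UMIs in anagen and 6 in telogen, with 10th percentiles of 3 and 1 and 90th percentiles of 35 and 18. *JUN*, *KLF6* and *JUND* held 2472, 2260 and 1236 of the list's 10920 CPM in anagen, so these counts reflect mostly a few members. The nuclear-encoded respiratory chain list moved the other way, with medians of 7 and 9 UMIs, as did the ribosomal list with 227 and 267. Heat shock and chaperone genes had medians of 15 and 13 UMIs. The part that free RNA has in these per-cell counts was not tested.

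**Figure D5:**
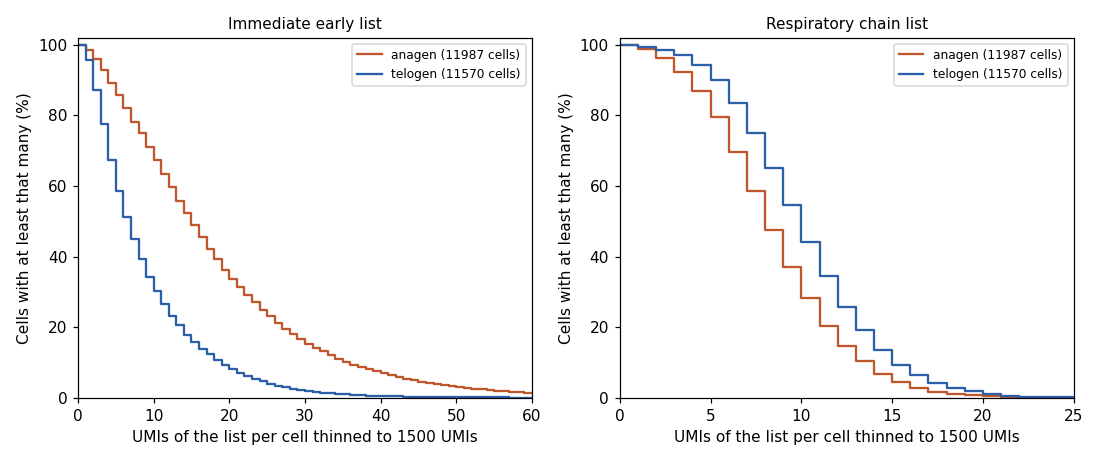
Share of cells (%) with at least the given number of UMIs of the immediate early list (left) and of the respiratory chain list (right), after thinning each cell to 1500 UMIs, for 11987 anagen and 11570 telogen cells. The telogen curve is left of anagen for the immediate early list (medians 6 and 14) and right of it for the respiratory chain list (medians 9 and 7).

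The list of ErbB ligands and receptors, which also holds the inhibitor gene *ERRFI1*, showed a split. Of 11 genes 7 reached the level, 4 were past 2-fold lower, 0 past 2-fold higher and the median was -1.39. *AREG* measured 650.2, 307 and 163 CPM, *HBEGF* 37.0, 15.9 and 6.37 CPM and *EREG*, epiregulin, 29.3, 30.9 and 4.71 CPM, with log2 ratios of -2.00, -2.54 and -2.64. *ERRFI1*, the feedback inhibitor of the EGF receptor, was lower too (50.2, 40.5 and 19.1 CPM). *BTC*, betacellulin (27.6, 14.7 and 45.4 CPM), and *NRG1*, neuregulin 1 (14.5, 7.68 and 25.4 CPM), were higher in telogen, with log2 ratios of 0.72 and 0.81.

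Of 14 genes of the IGF axis 6 reached the level, with a median of -0.22. Its binding proteins differed in direction: *IGFBP3* was 3.56-fold lower in telogen (257, 58.4 and 72.4 CPM), *IGFBP5* had a log2 ratio of -0.61 (119.6, 109 and 78.5 CPM), *IGFBP7* of 0.45 (535, 1160.4 and 730.1 CPM), and *IGFBP6* was higher as given above. The receptor gene *IGF1R* measured 14.3, 19.3 and 8.73 CPM.

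Of 45 respiratory chain genes 37 reached the level, 31 were above 0, 2 were past 2-fold higher, 0 past 2-fold lower, and the median was 0.46. Small subunits of complex I such as *NDUFB11* (59.3, 57.0 and 116 CPM) and *NDUFB10* (583, 449 and 844 CPM), the complex III subunit *UQCR10* (13.1, 11.6 and 29.3 CPM) and *COX7A2L*, an assembly factor (4.73, 7.51 and 10.2 CPM), were among the higher ones. The ATP synthase subunits *ATP5F1A* (431, 395 and 357 CPM) and *ATP5F1B* (574, 455 and 459.5 CPM) were among the 6 below 0, with ratios of -0.27 and -0.32, which lie near the median gene. For ribosomal proteins 28 of 29 genes were above 0 and 0 past 2-fold, between -0.02 for *RPS3* and 0.40 for *RPS9* (median 0.27).

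Cholesterol genes were lower. Of 32 lipid and sterol genes 21 reached the level, 6 were past 2-fold lower, 0 past 2-fold higher, and the median was -0.71. Among the members past 2-fold were *FABP7*, *INSIG1*, a sensor of sterols (17.0, 11.9 and 6.04 CPM), and the sterol synthesis genes *SQLE* (80.4, 56.9 and 34.5 CPM) and *HMGCS1* (26.6, 21.0 and 12.2 CPM). *SREBF1*, the transcription factor of fatty acid synthesis, had a log2 ratio of -0.84, and *ELOVL3*, an elongase of sebaceous and follicle lipids, of -0.87 (108, 24.1 and 59.3 CPM). *FABP5*, the epidermal fatty acid carrier, was higher in telogen (418, 335 and 757 CPM).

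Hypoxia genes differed in direction, with 11 of 16 at the level, 1 past 2-fold higher, 3 past 2-fold lower and a median of 0.75, which turned to -0.10 when members of any level were taken. The glycolytic genes *ENO1* (141, 176 and 270.0 CPM) and *PGK1* (10.5, 11.5 and 17.6 CPM), *BNIP3* (6.80, 10.1 and 13.5 CPM) and *ANKRD37* (5.60, 15.7 and 21.0 CPM) were higher, and *VEGFA*, the growth factor of vessels (66.5, 31.6 and 21.1 CPM), *PFKFB3*, an activator of glycolysis (16.8, 5.06 and 6.20 CPM), and *NDRG1* (364, 337 and 168 CPM) were lower. Glucocorticoid targets were split too, with *MT2A* and *FKBP5*, a co-chaperone of the receptor (27.4, 51.4 and 61.3 CPM), past 2-fold higher, *ERRFI1* past 2-fold lower, *ZBTB16* equal (29.2, 71.2 and 30.2 CPM) and a median of 0.05 over 7 of 11 genes. Of 18 clock genes 12 reached the level, with *BHLHE40* and *CRY2* (12.8, 7.84 and 5.35 CPM), a repressor of the clock, past 2-fold lower and a median of -0.64. *NR1D1* (27.9, 31.2 and 17.5 CPM) and *DBP* (55.8, 35.7 and 36.7 CPM), outputs of the clock, had log2 ratios of -0.68 and -0.60, and the time of day of sampling was not given.

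The retinoid and detoxification list had 7 of 22 genes at the level and a median of -0.80. *STRA6*, the membrane receptor for retinol uptake (33.1, 6.85 and 11.5 CPM), and *TXNRD1*, thioredoxin reductase (31.1, 21.9 and 9.47 CPM), were past 2-fold lower along with *GPX3* (12.7, 7.33 and 5.71 CPM), whereas *CRABP2* was past 2-fold higher.

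Among 19 heat shock and chaperone genes at the level 9 were above 0 and 10 below, with a median of 0.00 that became 0.18 with scaling to the median gene. *CRYAB*, a small heat shock protein, was 2.35-fold higher in telogen (267, 481 and 628 CPM) and *HSPH1* 1.97-fold (75.0, 119 and 148 CPM), while *HSPA5*, the chaperone of the endoplasmic reticulum, was 2.25-fold lower (1502, 911 and 668 CPM) and *HSPB8* 2.18-fold lower (39.4, 31.1 and 18.0 CPM). The cytosolic *HSP90AB1* was equal (3316, 3103 and 3314 CPM).

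Of 26 alarmin and antimicrobial genes 13 reached the level, 2 were past 2-fold higher, 3 past 2-fold lower, and the median was -0.55. The antimicrobial *S100A7* measured 4194, 191 and 2859.5 CPM, *S100A8* 111, 16.8 and 94.5 CPM and *S100A12* 248, 33.3 and 208 CPM. These 3 genes were lower in telogen than in anagen by 1.47-fold, 1.17-fold and 1.19-fold and were far lower in catagen than in both. The ratios of *S100A8* and *S100A12* lie near the median gene. *CCL20*, a chemokine for cells with *CCR6* (439, 218 and 121 CPM), *IL1A* (17.2, 7.57 and 4.43 CPM) and *TNFAIP3*, an inhibitor of NF-kappaB (11.8, 8.21 and 4.81 CPM), were past 2-fold lower, whereas *IL18* (30.1, 38.3 and 72.8 CPM) and *DUOX1* were past 2-fold higher. In the interferon list 8 of 19 genes reached the level, with 1 past 2-fold higher, 3 past 2-fold lower and a median of -0.72. *ISG15* (108, 46.4 and 32.5 CPM), *MX1* (16.4, 1.82 and 5.08 CPM) and *IRF9* (34.3, 10.6 and 11.6 CPM) were past 2-fold lower, and *PSMB8*, like *PSMB10* an immunoproteasome subunit, was 3.83-fold higher (8.83, 7.08 and 33.8 CPM).

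In the matrix and adhesion list 19 of 28 genes reached the level, 1 past 2-fold higher, 6 past 2-fold lower, with a median of -0.45. The lowest were *DCN*, decorin (49.5, 51.6 and 11.3 CPM), *SERPINE2*, and *ADAMTS1*, a protease of proteoglycans (263, 206 and 66.2 CPM). The summed mesenchymal markers were also lowest in telogen (42.6, 9.76 and 5.08 CPM). They were lower in catagen than in anagen, whereas *DCN* was not. Their part in the *DCN* difference was not tested. *TNC*, tenascin C (11.6, 7.37 and 27.2 CPM), and *TIMP2*, an inhibitor of metalloproteases (105, 86.9 and 202 CPM), were higher, with log2 ratios of 1.23 and 0.94. Among cell junction genes 17 of 24 reached the level, with *CLDN4* past 2-fold lower, *PERP*, a desmosomal protein, past 2-fold higher (556, 586 and 1141 CPM), and a median of -0.17 that turned to 0.01 with scaling to the median gene. *CLDN1* (586, 319.8 and 317 CPM) and the desmosomal *DSP* (2069, 3409 and 1499 CPM) had log2 ratios of -0.89 and -0.47, and the desmosomal cadherin *DSG1* of 0.45.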

How the data were processed

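The authors deposited 1 matrix of raw UMI counts per library, as Cell Ranger wrote it, with no normalization. The submitters' processing notes name Cell Ranger 2.1.1, whereas the file headers name versions 4.0.0 (anagen), 3.1.0 (catagen) and 6.0.2 (telogen), and the authors' genome build is not given in the sources used here. Counting by different versions can move the levels of genes and the number of low-depth cells. The gene list pairs Ensembl identifiers with symbols.

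Barcodes with fewer than 200 detected genes were left out, and doublets were not removed. Counts were summed per library and scaled to CPM in Python 3.11.15 (numpy 2.4.6, pandas 2.3.3, scipy 1.17.1), and plots were drawn with matplotlib 3.10.9. Ratios of summed counts carry exact conditional (binomial) intervals, shares exact Clopper-Pearson intervals and differences of shares Newcombe intervals, all at 95%. A fold of 2 and a level of 50 CPM (10 CPM for lists) were required. The ratio and interval were tested on data simulated with counting error only, which leave out differences between cells, animals and libraries. Named were the 15 genes at each end of the ratio, the 10 most abundant genes of each library, up to 3 members at each end of a list and those past 2-fold, and genes that the study or the outline of the series names. Some other list members are given as examples and were chosen after their values were seen, as were *PTGES* and the members named for comparison. Some genes that these rules name are not reported here. The lists, genes and settings were chosen with earlier results of these data known. Alternatives were other cell filters, scalings, levels, folds and class cut-offs.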

Additional observations from a re-analysis of the deposited data

Results flagged for a closer look

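Genes without a symbol were outside the comparison of named genes, and at least 50 CPM in either library was reached by 497 of them. The median log2 ratio of telogen over anagen was 0.16 over these genes, with 42 at least 2-fold higher and 30 at least 2-fold lower. ENSBGRG00000004825 measured 86.6 CPM in telogen against 7.03 in anagen and 183 in catagen (log2 3.62), and ENSBGRG00000000991 measured 241 CPM in telogen against 25.8 in anagen and 54.4 in catagen (log2 3.22). Both ratios were above that of *S100A4*, the highest among genes with a symbol, and what these genes encode was not analysed here.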

How the results depend on the processing

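No paired analysis was possible because each stage has 1 library. For the same reason no replicate could be left out. With scaling to the median gene 66 genes were 2-fold higher and 95 lower, against 40 and 141, and the median log2 ratio was 0.0276. At a level of 10 CPM the counts were 100 higher and 373 lower, at 100 CPM they were 24 and 85, and at 4-fold they were 1 and 15. Requiring 1000 genes or 2404 UMIs per cell, leaving out the 5% of cells with the most UMIs, taking the mean of CPM over cells, or scaling without the 20 most abundant genes gave 30 to 41 higher and 140 to 156 lower genes. The difference in the share of inner sheath and shaft keratin cells was -0.962 points with at least 1000 genes per cell, -2.91 with the cut-off lowered to 1% and -0.334 with it raised to 4%, and that of mitotic gene cells was -1.43 with the cut-off lowered, -0.0591 with it doubled and -0.124 when 2404 UMIs were required of both libraries, against -0.285. The suprabasal side differed by -7.30 points when 2404 UMIs were required of both libraries. Of 115 named genes past 2-fold, 0 changed sign over 805 values under the alternatives and 22 of these values were under 2-fold, with the largest move 0.78 on the log2 scale. Of all 230 named genes 26 of 1610 values changed sign, and of all 35 list medians 8 of 280 did. Of the medians of 18 lists with a size of at least 0.5, over 144 values, that of the hypoxia list changed sign, to -0.10 with members of any level. The causes were not tested. Each leading gene has over 900 UMIs in both libraries, which keeps its counting error small. Telogen holds more shallow cells than anagen, and 1 library per stage limits these ratios.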

Other observations

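Receptors of hormones that act on the follicle were at low levels. Of 19 genes 6 reached 10 CPM, 0 were past 2-fold and the median log2 ratio of telogen over anagen was -0.39. *THRA*, a thyroid hormone receptor, measured 42.1, 59.5 and 24.6 CPM and *NR3C1*, the glucocorticoid receptor, 57.1, 87.3 and 39.0 CPM. In the actin and contractile list 15 of 22 genes reached the level, with a median of -0.33. *MYH9*, a non-muscle myosin (181, 196 and 79.3 CPM), and *LMNA*, lamin A (848, 355 and 420.1 CPM), were past 2-fold lower, and *PFN1*, profilin 1 (88.2, 121 and 185 CPM), was past 2-fold higher. Among 9 of 19 apoptosis and p53 genes the median was -0.37, with *GADD45A* past 2-fold lower and *BAX*, an effector of mitochondrial apoptosis, at 1228, 1282 and 1545 CPM. The unfolded protein response list had 10 of 14 genes at the level and a median of -0.25, with *HSPA5* past 2-fold lower, *DDIT3* at 132, 93.6 and 76.8 CPM and *SDF2L1* at 58.6, 45.9 and 91.0 CPM. Of 3 RNA-binding genes listed with the cold response, *CIRBP* measured 296, 289.8 and 319 CPM, *RBMX* 160.4, 142 and 113 CPM and *SRSF5* 128, 92.1 and 44.4 CPM, with a median of -0.51.

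The summed levels of other marker lists were 184, 343 and 234 CPM for 7 pericyte and smooth muscle genes, mostly *TAGLN* (175, 334 and 229 CPM), 35.2, 58.2 and 62.7 CPM for 5 sebaceous genes, mostly *MGST1* (25.2, 48.1 and 55.3 CPM), 10.3, 5.06 and 3.16 CPM for 6 Merkel cell and nerve genes and 0.0241, 0.0194 and 0.0193 CPM for 2 erythroid genes. Among the 10 most abundant genes of a library, *B3GALT4* is listed with 8588, 6288 and 10195 CPM and *COLEC11* with 6293, 6542 and 8241 CPM. *B3GALT4* neighbours *RPS18* in the RefSeq annotation of the Bosgru_T2T1.0 assembly, and *RPS18* has no row in the gene list used here, so which transcript the *B3GALT4* UMIs come from is uncertain. *COLEC11* was seen in 99.8% of anagen and 99.6% of telogen cells before thinning, and which transcript its UMIs come from was not checked. The gene without a symbol ENSBGRG00000010006 took 10.2% of UMIs in anagen, 15.1% in catagen and 6.89% in telogen (log2 -0.57), and ENSBGRG00000017967 measured 97.4, 1.98 and 7.33 CPM (log2 -3.73).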
